A study of Mus musculus with 7 samples.

Results

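Baseline expression was described in untreated wild-type RAW264.7 cells, the 3 arrays titled RAW WT at time 0 of a series of 7 Affymetrix arrays. The other 4 arrays hold RAW264.7 cells labelled Gfi1 knockout (RAW GfI1-1), also untreated, and were used here only in choosing 1 probe set per gene, with no comparison between genotypes. RAW264.7 is a macrophage-like line grown from a tumour that Abelson leukaemia virus induced in a mouse, so the cells carry a viral transformation, divide continuously and stand for 1 line rather than for macrophages of a tissue. The labels call the replicates biological without saying whether they came from separate cultures, so the spread given here may be partly technical. Members are the 9999 genes that have at least 1 probe set annotated to that gene alone, out of 19431 probe sets. Percentiles, bands and the median refer to these genes only, and whether other genes were left out of the values earlier is not known. Where a gene had several such probe sets, the one with the highest mean over all 7 arrays stood for it.

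Macrophages are phagocytes that engulf particles, digest them in lysosomes, sense microbes through Toll-like receptors and release cytokines and chemokines when stimulated. Their survival depends on the receptor for macrophage colony-stimulating factor, and their identity is set by the transcription factor PU.1 (Spi1) with C/EBP factors. Many cytokine genes are kept low in resting macrophages and are induced only after a stimulus.

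Values are log2 intensities, so a difference of 1 is a 2-fold difference in signal. A probe set's signal depends on how well its probes bind as well as on the amount of transcript, so the order of genes given here is an order of signal and not of transcript number. The labelled RNA was a bulk extract, in which fewer cells with a transcript and less transcript per cell cannot be told apart. With no detection calls in use, transcripts at the floor cannot be told apart from background binding. No level was tested, and the gene lists were chosen with earlier results of these data known.

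Signal ran from 0.99 to 13.55, with a median of 7.19 over all genes. The highest 5% of genes (500 genes) lay at 10.58 or above, the lowest 5% (500 genes) at 3.51 or below, and the middle 5% between 7.08 and 7.30. These bands, which hold 5% of genes at either end by construction, are the scale against which each gene list is read. By the same construction, 50% of genes lie above the median. Between 40.5% and 41.5% of each array's summed linear intensity came from the highest 5% of genes, and between 7.96% and 8.46% from the lower 50%. Defining macrophage markers were spread across the upper part of this range: Lyz2 lay near its top, Cd68 and Mpeg1 in the highest band, Spi1 above the median, and Itgam at the median.

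**Figure D1:**
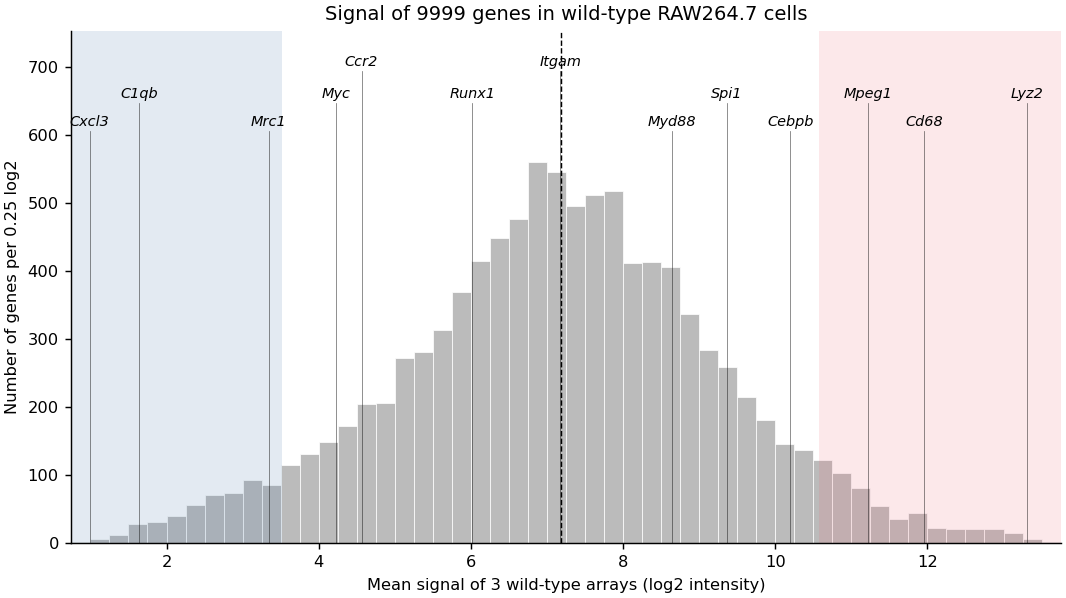
Number of genes in bins of 0.25 log2 against the mean log2 intensity of the 3 wild-type arrays; the dashed line is the median, 7.19, and the shaded areas are the lowest and highest 5% of genes. Lyz2 stands near the right end at 13.31, Itgam at the median at 7.17 and Cxcl3 at the left end at 0.99.

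The RefSeq promoter of 8 genes shows the range of start regions behind these levels. They are given in GRCm38.p6, from 100 bases before to 20 bases after the annotated start, on the strand of the gene and 5′ to 3′, with CG dinucleotides in capitals. Lyz2 (chr10:117282253-117282372, minus strand), Cd68 (chr11:69666151-69666270, minus strand) and Ctss (chr3:95526686-95526805, plus strand) are macrophage or lysosome genes of the highest band. Rplp2 (chr7:141447551-141447670, plus strand) and Rps18 (chr17:33955646-33955765, minus strand) encode ribosomal proteins of the same band. Mycn (chr12:12941817-12941936, minus strand) encodes the transcription factor N-Myc and had the highest signal of the transcription factors listed. That place rests on the highest of its 3 probe sets, the others having means of 9.05 and 8.83. Cxcl3 (chr5:90786001-90786120, plus strand), a chemokine gene, and Il6 (chr5:30013014-30013133, plus strand), a cytokine gene, belong to the lowest band.
Lyz2: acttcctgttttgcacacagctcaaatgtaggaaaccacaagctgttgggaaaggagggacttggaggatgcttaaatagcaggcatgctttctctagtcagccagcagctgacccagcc
Cd68: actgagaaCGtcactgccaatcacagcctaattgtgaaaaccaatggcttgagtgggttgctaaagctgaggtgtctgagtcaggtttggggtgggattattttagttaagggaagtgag
Ctss: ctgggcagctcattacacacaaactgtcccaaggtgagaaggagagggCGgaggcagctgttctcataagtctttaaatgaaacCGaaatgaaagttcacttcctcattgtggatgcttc
Rplp2: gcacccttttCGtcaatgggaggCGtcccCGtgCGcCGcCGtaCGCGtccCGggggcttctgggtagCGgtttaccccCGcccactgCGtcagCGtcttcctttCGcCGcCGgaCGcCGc
Rps18: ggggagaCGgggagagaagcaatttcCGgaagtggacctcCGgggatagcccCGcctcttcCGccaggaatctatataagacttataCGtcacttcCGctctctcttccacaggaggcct
Mycn: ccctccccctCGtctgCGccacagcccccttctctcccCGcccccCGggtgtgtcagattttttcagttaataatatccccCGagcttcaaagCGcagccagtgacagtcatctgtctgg
Cxcl3: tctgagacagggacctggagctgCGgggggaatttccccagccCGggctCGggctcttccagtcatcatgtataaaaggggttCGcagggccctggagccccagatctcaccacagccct
Il6: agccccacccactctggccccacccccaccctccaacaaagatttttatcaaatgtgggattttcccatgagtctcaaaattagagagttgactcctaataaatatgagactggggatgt

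The high macrophage and lysosome genes had few CG dinucleotides in these windows, 0 for Lyz2, 1 for Cd68 and 2 for Ctss. The ribosomal protein genes had more, 18 for Rplp2 and 7 for Rps18, and Mycn had 6. The low genes did not differ from the high macrophage genes in one direction, with 4 for Cxcl3 and 0 for Il6. Over the 250 bases before the start, the observed CG count divided by the count that base composition predicts was 0.095 for Lyz2, 1.05 for Rplp2 and 0.277 for Il6. The letters TATAAA, searched on the gene's strand with their first base between 40 and 20 bases before the start, were found for Cxcl3 and not for the other 7 genes. A promoter was listed for 8192 of the 9999 genes (81.9%), and 1.12% of these held TATAAA in that window. A match in letters is a description of the window and not evidence of a bound factor.

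The CG ratio differed between lists that lie above the median in signal, though not at 1 level. It was over 0.6 for 71.1% of all 8192 genes, for 74.5% of the highest band and for 77.8% of the middle band. Of ribosomal protein genes with a promoter, 78.9% passed it, and of respiratory chain genes 78.0%. Of the 29 lysosome genes with a promoter only 34.5% did, and of the 22 pan-leukocyte genes with one 27.3%, although both lists lie high in signal. The median signal of these lists was 12.83 (ribosomal), 10.93 (respiratory chain), 10.53 (lysosome) and 9.58 (pan-leukocyte), so level was not held equal. A run of at least 8 pyrimidines within 10 bases of the start, a feature known from ribosomal protein genes, was found for 47.4% of those genes, for 31.8% of the pan-leukocyte genes and for 13.5% of all genes. Searched on both strands of the 250 bases before the start, GGGCGG was held by 60.1% of all promoters and 59.1% of those of the highest band, CCAAT by 37.1% and 39.95%, and GAGGAAGT by 2.50% and 1.17%. The check is void for the lowest band, where only 76.2% of genes had a listed promoter, and for the macrophage identity and cytokine lists, where 68.2% and 69.2% had one. Whether the CG ratio changes with level cannot be read from the highest and middle bands alone.

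The 30 genes of highest signal combined macrophage products with the translation machinery. Lyz1 and Lyz2, the lysozymes that cleave bacterial cell walls, had the highest and next highest signals, at 13.55 and 13.31. The other probe sets of Lyz1 had means of 13.10 and 4.62, the latter below the median. The 2 genes may share signal, which was not tested, so whether Lyz1 itself belongs among the highest genes is uncertain. Lyz2 read 13.29, 13.30 and 13.33 in replicates 1, 2 and 3. Lgals3, the galactose-binding protein galectin-3, followed at 13.29, and Fth1, the ferritin heavy chain that stores iron, stood at 13.25. Csf1r, the receptor for macrophage colony-stimulating factor, read 12.92, 12.88 and 12.88. Cytosolic ribosomal proteins are encoded by 20 of these 30 genes, such as Rps3a1 at 13.28 and Rpsa at 13.24, against 43 of all 9999 genes. Tpt1 (13.27), Eef1a1 (13.09), an elongation factor of translation, and Pabpc1 (12.96), the poly(A)-binding protein, were also among the 30. The order within these 30 is loose: they span 0.67, and the 3 arrays of a gene failed to overlap those of the next gene for only 4 of 29 neighbouring pairs.

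Among the 100 highest genes, 35 encode cytosolic ribosomal proteins, 9 belong to the respiratory chain and ATP synthase, and 7 to the lysosome list. Another 4 are on the macrophage identity list, 4 on the actin list and 1 on the pan-leukocyte list, while 31 are on no list. Over all 9999 genes, these lists hold 43, 71, 36, 22, 37 and 27 measured genes, in the same order. In all, 1052 of the 9999 genes are on any list. Lists overlap, so a gene can be counted under more than 1 of them.

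Genes that define macrophages were mostly high but not uniformly so. Of 25 genes on the macrophage identity list, 22 were measured, of which 7 lay in the highest band, 16 above the median and none in the lowest band, with a median percentile of 84.2. Lyz1, whose place is uncertain, is counted among the 7. Cd68, a glycoprotein of the lysosomal membrane, read 11.97, 11.94 and 11.95. Cd14, the co-receptor for lipopolysaccharide, read 11.68, 11.55 and 11.58. Mpeg1, a pore-forming protein of macrophages, read 11.14, 11.29 and 11.24. The arrays of Cd14 lay above those of Mpeg1 without overlap, and those of Cd68 above those of Cd14. Spi1 read 9.45, 9.35 and 9.29, and Adgre1, which encodes the F4/80 antigen, 8.79, 8.69 and 8.67. Itgam, the CD11b chain of complement receptor 3, read 7.28, 7.18 and 7.07, which is at the median of all genes. The lowest members were Ccr2, the receptor for the monocyte attractant CCL2, at 4.56 ± 0.14 (SD, n = 3) and Maf, a transcription factor of resident macrophages, at 4.06 ± 0.26 (SD, n = 3).

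Most of the few tissue macrophage markers measured lay near the floor. Only 7 of 27 listed genes were measured, 5 of them in the lowest band, with a median percentile of 3.51. The measured markers may therefore not stand for the list. Mrc1, the mannose receptor, read 3.36, 3.26 and 3.41. Siglec1, the sialic acid-binding receptor CD169, read 2.85, 3.26 and 2.95, and P2ry12, a purine receptor of microglia, 2.76, 2.13 and 2.17. Cd5l, a secreted protein of resident macrophages, stood at 3.08, and Fabp4, a fatty acid-binding protein, at 2.61. The highest of the 7 was Hpgd, which degrades prostaglandins, at 7.01, just under the median. All arrays of the 5 low genes lay below all arrays of Itgam.

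**Figure D2:**
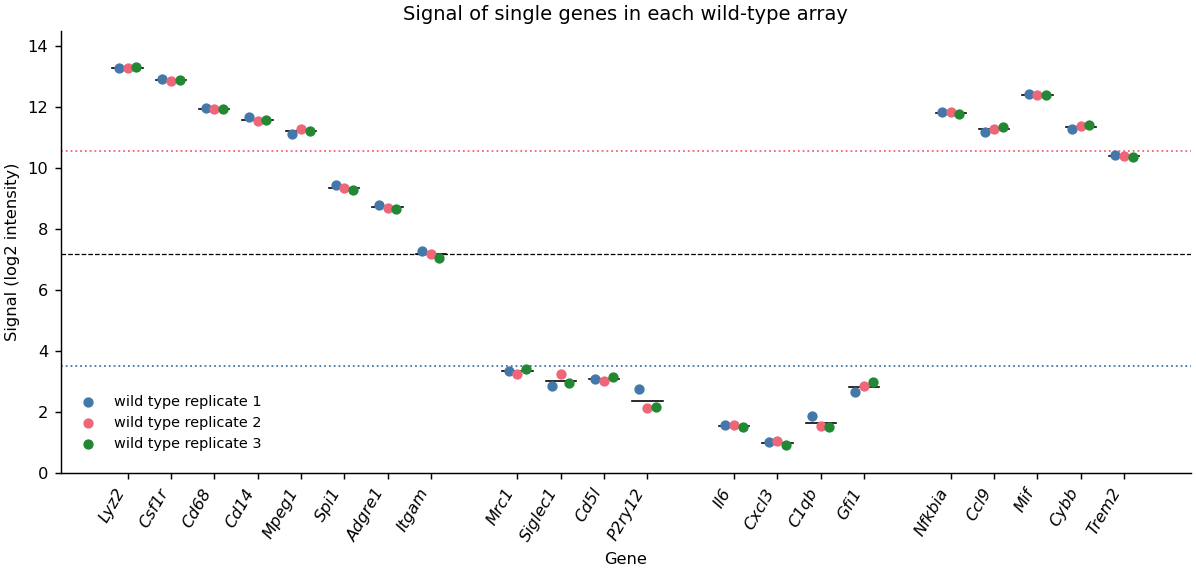
Log2 intensity of single genes in each wild-type array, with points for replicates 1, 2 and 3 and a bar at their mean; the dashed line is the median of 9999 genes, and the dotted lines are the limits of the lowest and highest 5%. The macrophage markers descend from Lyz2 at 13.31 to Itgam at 7.17, while Mrc1, Siglec1, Cd5l, P2ry12, Il6, Cxcl3, C1qb and Gfi1 have means below the lower limit of 3.51.

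Leukocyte adaptor and surface genes were high. Of 27 measured genes on the pan-leukocyte list, 9 lay in the highest band and 23 above the median (median percentile 88.5). Tyrobp, the signalling adaptor of TREM2 and other receptors, read 12.61, 12.71 and 12.68, and Fcer1g, the shared chain of Fc receptors, 11.85, 11.82 and 11.85. Laptm5, a lysosomal membrane protein of blood cells, stood at 11.69. Cd48 (5.74) and Spn, which encodes CD43 (5.79), were the lowest members. On the Fc receptor and phagocytosis list, 24 of 32 measured genes lay above the median and 3 in the highest band. There Trem2, a lipid-sensing receptor, read 10.43, 10.40 and 10.38, whereas Trem1, an amplifier of inflammation, stood at 3.68 and the lectin receptor Clec4n at 3.84.

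The lysosome list had 18 of 36 measured genes in the highest band and 31 above the median, with a median percentile of 94.7. Ctss, cathepsin S, read 12.67, 12.71 and 12.70, and the other cathepsins Ctsb and Ctsl stood at 12.65 and 12.25. Cst3, the secreted cathepsin inhibitor cystatin C, stood at 12.83. Not all cathepsins were high: Ctsk, the collagen-degrading cathepsin of osteoclasts, read 4.37, 4.65 and 4.56, and Ctsh 4.21, 4.20 and 4.01. Atp6v0d2, a proton pump subunit of osteoclasts, stood at 5.45. On the osteoclast list, 9 of 15 measured genes lay above the median, with a median percentile of 70.4 that was 44.0 with probe sets averaged and 29.6 with the lowest probe set. The list was led by the proton pump subunit Atp6v1c1 at 11.14 and Fos at 9.74.

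The list of the phagocyte oxidase and of nitric oxide synthesis held both very high and very low genes. Cyba, the p22phox subunit, stood at 11.98 ± 0.028 (SD, n = 3), and Cybb, the catalytic gp91phox subunit, 11.28, 11.41 and 11.43. The cytosolic subunit Ncf1 stood at 10.47 and the GTPase Rac1 at 10.90. Arg2, an arginase, stood at 3.47 ± 0.29 (SD, n = 3), Ass1, which remakes arginine from citrulline, at 1.71, and Nos3, the endothelial nitric oxide synthase, at 4.76. Of the 11 genes measured on this list, 7 lay above the median and 2 in the lowest band. Its median percentile was 92.3, but 73.4 with the probe sets of a gene averaged and 52.6 with the lowest probe set.

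Secreted mediators were mostly low, with a few exceptions far above the rest. Of 26 measured cytokine and growth factor genes, 6 lay above the median, 1 in the highest band and 4 in the lowest, with a median percentile of 20.2 (38.1 with the lowest probe set of each gene). Mif, macrophage migration inhibitory factor, read 12.44, 12.40 and 12.40 and was the one in the highest band. The others with high values included Ltb, lymphotoxin beta, at 9.13, Il18, a cytokine stored as a precursor, at 9.04, and Igf1, a growth factor, at 8.79. The 4 in the lowest band were Csf2 (3.29), Ifnb1 (2.94), Il7 (2.61) and Il6, at 1.55 ± 0.045 (SD, n = 3). Il6 encodes interleukin-6 and Ifnb1 interferon beta.

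Chemokines covered the whole range. Ccl9 read 11.19, 11.30 and 11.36, and Ccl3 and Ccl4, the macrophage inflammatory proteins, stood at 9.28 and 8.33. Cxcl16, a membrane-bound chemokine, stood at 7.93. Cxcl3, a neutrophil attractant, read 1.02, 1.04 and 0.91, the lowest mean of all 9999 genes. Of 15 measured chemokine genes, 5 lay above the median, with a median percentile of 30.9 that was 53.9 with the lowest probe set. Among complement genes, 3 of 10 did: Cr1l, a regulator of complement (9.70), Cfp, properdin (8.17), and C3ar1, the receptor for C3a (7.48), whereas C1qb, a chain of C1q, read 1.86, 1.53 and 1.52.

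Genes of antigen presentation covered most of the range. The class I genes B2m (12.51), H2-D1 (11.80) and H2-K1 (11.50) were in the highest band, as was the chaperone Canx (11.05). H2-DMb2, which loads peptides on class II molecules, read 3.56, 4.25 and 4.06, and Icosl, a costimulatory ligand, 2.82, 2.93 and 2.96. In all, 11 of 21 measured genes lay above the median. Class I genes share near-identical sequence, so the signal of H2-D1 and H2-K1 may be partly shared. For iron, Fth1 was accompanied by the iron chaperones Pcbp2 (11.62) and Pcbp1 (11.03), while the iron exporter Slc40a1 stood at 4.31 and Lcn2, a siderophore-binding protein, read 3.53, 3.72 and 4.37.

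Sensors of microbial products lay around and above the median, with 18 of 31 measured genes above it. Ly86 (MD-1), partner of the LPS sensor homologue RP105, stood at 11.72, and Cd14 was the other member of the highest band. Tlr2, which senses bacterial lipopeptides, read 9.13, 8.96 and 9.01, and Tlr4, the lipopolysaccharide receptor, 8.65, 8.67 and 8.65. Their shared adaptor Myd88 stood at 8.65, so Tlr4 and Myd88 could not be ordered. Unc93b1, which carries Toll-like receptors to endosomes, stood at 9.48 and Casp1, the inflammasome protease, at 8.81. Tlr3, a sensor of double-stranded RNA, read 5.14, 4.79 and 4.66, Tlr6 stood at 5.57, Zbp1 at 5.48 and the DNA sensor Aim2 at 4.46.

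Chemoattractant and cytokine receptors were lower as groups than the sensors, with median percentiles of 28.8 and 36.8 against 60.5. Of 25 measured chemoattractant and G-protein coupled receptors, 8 lay above the median and none in the highest band. The nucleotide receptor P2ry6 (10.16) and the fractalkine receptor Cx3cr1 (10.13, 10.20 and 10.09) led them, and Gpr183, an oxysterol receptor, stood at 8.63. Cxcr4 (4.26), Ptger2 (3.56) and P2ry12 (2.36) were near the other end. Of 44 measured cytokine, growth factor and TNF family receptors, 17 lay above the median, and Csf1r alone was in the highest band. Behind it came Tgfbr2, a TGF-beta receptor (10.48), Ifnar2, a chain of the type I interferon receptor (10.22), and Il10rb (8.85), with Tnfrsf1a (8.69) and Ifngr2 (8.45). Tnfrsf9, the costimulatory receptor 4-1BB, read 2.82, 2.90 and 2.51. Of 21 measured integrin and adhesion genes, 11 lay above the median, with a median percentile of 63.6. Among them Itga4 (10.91), Cd9 (10.59) and Itgb2 (10.16) were high, while Itgax, the CD11c chain, stood at 4.49 and Itgae, an integrin of tissue lymphocytes and dendritic cells, at 2.17.

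**Figure D3:**
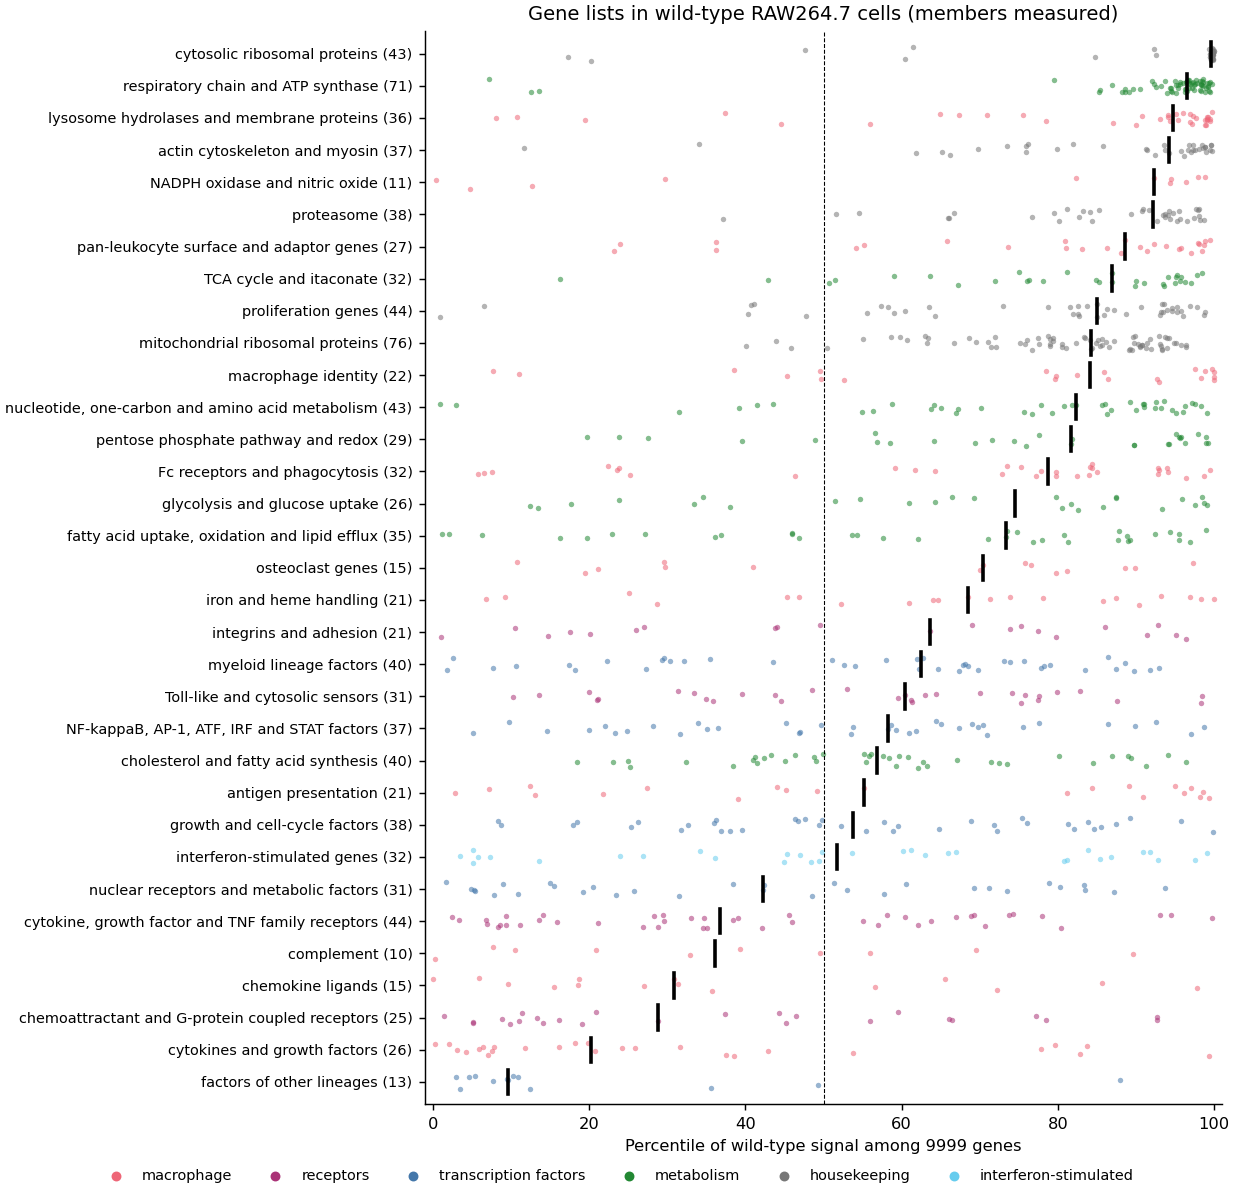
Percentile of wild-type signal among 9999 genes for each measured member of the gene lists with at least 10 measured members, the number measured being in parentheses; points are genes, scattered vertically for display, black bars are medians, and the dashed line is the 50th percentile. Ribosomal, respiratory chain and lysosome lists have medians of 99.7, 96.5 and 94.7, while cytokines and factors of other lineages have medians of 20.2 and 9.55.

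Transcription factors were spread over the range, and few lay in the highest band. None of 40 measured myeloid lineage factors was in the highest band, and 26 were above the median. Cebpb, a C/EBP factor of macrophages, read 10.17, 10.25 and 10.18 and led the list, followed by Mef2a (10.00), Lyl1 (9.71), Mitf (9.59) and Mef2c (9.47). Spi1 (9.36), Klf4 (9.09) and Zeb2 (8.75) came after them. Prdm1, a repressor of lymphocyte and myeloid genes, stood at 2.54, and Id1, an inhibitor of helix-loop-helix factors, at 4.50. Gfi1, the zinc finger repressor deleted in the other cells of the study, read 2.66, 2.85 and 2.98 in the wild-type arrays, a percentile of 2.59. That level rests on a single probe set.

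The signal-regulated factors had 21 of 37 measured genes above the median, with a median percentile of 58.2 that was 47.7 with probe sets averaged. Nfkbia, the inhibitor of NF-kappaB that NF-kappaB itself induces, read 11.85, 11.84 and 11.79. Atf4, a factor of the amino acid stress response, stood at 11.05, and both were in the highest band. The AP-1 subunits Jund and Fos stood at 10.13 and 9.74, Junb at 7.18 and Fosl1 at 4.37. Rel, the NF-kappaB subunit c-Rel, read 5.30, 4.99 and 4.69, and Stat2, an interferon signalling factor, 3.80, 3.48 and 3.41. Among nuclear receptors and metabolic factors, 13 of 31 lay above the median. Nfe2l2, the antioxidant factor NRF2, stood at 10.35, Hif1a, the hypoxia factor, at 9.44, Keap1, the inhibitor of NRF2, at 8.84, and Srebf1, a regulator of lipid synthesis, at 8.40. Nr4a3 (3.57), Thrb (3.48) and the xenobiotic receptor Nr1i2 (2.47) were at the other end.

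Growth-related factors contained a large gap between relatives. Mycn read 13.19, 13.25 and 13.26, whereas Myc, which encodes c-Myc, read 4.29, 4.43 and 3.98. The other Mycn probe sets had means of 9.05 and 8.83, so that every Mycn probe set lay above the single Myc probe set. Levels of different probe sets do not measure how much more of one transcript there is than of the other. Yy1 (9.65), Ctcf (9.47) and Sp1 (8.97), general DNA-binding factors, were well above the median, and E2f3 (7.18) was at it. Factors of other lineages were low, with 1 of 13 measured genes above the median and 3 in the lowest band. Their median percentile was 9.55, and 22.7 with the lowest probe set. Lmo2, a blood-forming factor, stood at 9.51 and Tal1 at 7.16, while Gata2 (4.35), Lef1 (3.61), Snai2 (3.45), Foxp3 (3.08) and Sox17 (2.92) were far lower.

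Energy metabolism was high. Of 71 measured genes of the respiratory chain and ATP synthase, 48 lay in the highest band and 68 above the median. Cox6a1 (13.01), Cox5a (12.59) and Cox5b (12.58), subunits of cytochrome oxidase, and Uqcrb (12.53) of complex III led. Isoforms of other tissues were low: Cox7a1, of muscle, stood at 4.87 and Cox4i2, of lung, at 4.74. Of 32 genes of the TCA cycle and itaconate, 30 lay above the median, led by Mdh2 (11.66) and Idh3g (11.31), while Pcx, pyruvate carboxylase, stood below it at 5.14. Acod1, which makes itaconate in stimulated macrophages, read 7.37, 7.14 and 7.13.

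Several enzymes of glycolysis were high. Pgk1 read 12.21, 12.18 and 12.19, Aldoa stood at 11.86, Pkm at 11.64, Ldha at 11.21 and Tpi1 at 10.77, and these were the 5 of 26 measured genes in the highest band. The glucose transporter Slc2a1 stood at 9.47 and the lactate carrier Slc16a1 at 9.46. The other lactate carrier, Slc16a3, stood at 5.79, the neuronal enolase Eno2 at 4.73 and the regulatory enzymes Pfkfb3 and Pfkfb2 at 5.28 and 4.85. Redox genes were led by Txn1, thioredoxin (12.20), Gpx1, glutathione peroxidase (12.08), and Sod1 (11.36), with 24 of 29 above the median. The cystine importer Slc7a11 read 5.68, 5.29 and 5.43 and was the lowest of them.

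Lipid synthesis lay nearer the median, with 24 of 40 genes above it and 1, the fatty acid elongase Elovl5 (10.90), in the highest band. Scd2, a desaturase (10.41), Fdps of the sterol pathway (9.67) and Acly (9.41) were also high, and Mvk, mevalonate kinase (5.88), Dgat2 (5.87) and Tm7sf2 (5.33) low. Lpl, lipoprotein lipase, read 11.97, 12.06 and 12.12, the highest of the lipid uptake and oxidation genes, and the lipid droplet protein Plin2 stood at 10.68. The cholesterol exporter Abcg1 stood at 10.10, whereas Apoc2 (3.79) and Apob (2.26) were low. Of the nucleotide, one-carbon and amino acid genes, 37 of 43 lay above the median, among them Oaz1 (12.15), Phgdh of serine synthesis (11.61), Paics of purine synthesis (11.11) and Hprt (10.80).

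Genes of growth and division were high. Of 44 measured proliferation genes, 38 lay above the median and 8 in the highest band, led by Pcna, the replication clamp (11.95), Cks1b (11.84), Stmn1 (11.33) and Cdt1, a replication licensing factor (11.03). Ccnd2, cyclin D2, stood at 3.84. Tyms, thymidylate synthase, read 2.03, 2.02 and 2.30 from its single probe set. The proteasome list had 37 of 38 genes above the median and the mitochondrial ribosomal list 73 of 76, but only 11 and 4 of these in the highest band. Actin and associated genes had 18 of 37 in the highest band, with Tmsb4x (12.83), Arpc2 (12.81) and Actb (12.80) whose order is loose, since the arrays of each overlapped those of the next. The other probe set of Arpc2 had a mean of 3.75 and that of Actb 11.47.

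Markers of other cell types were sparsely measured, and those measured were mostly low. The share measured ran from 4.55% for fibroblasts to 41.2% for dendritic cells, against 88.0% for macrophage identity. Why the rest had no named probe set in the values is not known, so the measured markers may not stand for their lists. The T and NK cell list had 3 of 26 genes measured, Prf1 (4.25), Cd28 (3.90) and Cd5 (2.23), all below the median. The B cell list had 4 of 23, of which Blnk, an adaptor also used in myeloid cells, stood at 8.84, Sdc1 at 6.18, Bank1 at 5.56 and Mzb1 at 4.06. Neutrophil genes (3 of 24) ranged from Ceacam1 at 7.54 to Lcn2 at 3.88. The single measured fibroblast marker, Pdgfrb, stood at 3.90, the single mast cell marker, Gata2, at 4.35, and the 3 endothelial markers between 4.76 and 5.23 (Nos3 and Egfl7). Of 7 measured dendritic cell genes, 2 lay above the median, Bst2 (9.40), also an interferon-stimulated gene, and Cd83 (8.43). The other 5 ran from Fscn1 at 6.43 to Itgae at 2.17, and the median percentile was 10.5. Of 9 tissue-restricted genes, 5 were in the lowest band, and Mbp (8.35) and Tnni2 (7.94) were above the median.

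Spread between arrays fell as signal rose. The SD over the 3 arrays had a median of 0.073 over all genes, 0.15 in the lowest 10% of genes and 0.037 in the highest 10%. A gene's rank moved by a median of 16 places between arrays in the highest band, 223 in the middle band and 72 in the lowest band. Of the 500 genes of the highest band, 475 were in that band on all 3 arrays, and of the lowest 437 were. The SD of the difference between arrays was 0.155 for replicates 1 and 2, 0.165 for replicates 1 and 3, and 0.111 for replicates 2 and 3. No gene differed by 1 or more in any pair.

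Replicate 1 stood somewhat apart. Over all genes it read higher, with a median difference of 0.061 from replicate 2 and 0.076 from replicate 3. Among genes above the median, it was the array farthest from the other 2 for 3024 genes (60.5%). The share was 16.2% for replicate 2 and 23.3% for replicate 3. Of the 100 genes with the highest SD, replicate 1 was farthest for 93. The arrays were not centred for these counts, so the offset of replicate 1 enters them. Without replicate 1, the median SD was 0.036, against 0.076 without replicate 2 and 0.068 without replicate 3, each over 2 arrays. Pik3cd, a leukocyte PI3-kinase subunit, had the highest SD of the genes above the median and read 8.99, 9.79 and 9.87. Pnrc2, an mRNA decay cofactor, read 7.74, 8.38 and 8.42, and Tspyl1 read 7.19, 7.76 and 7.84. Of the 15 such genes with the highest SD, Ppp5c, a protein phosphatase, was the only one higher in replicate 1, at 7.76 against 7.31 and 7.43. What set replicate 1 apart was not tested.

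**Figure D4:**
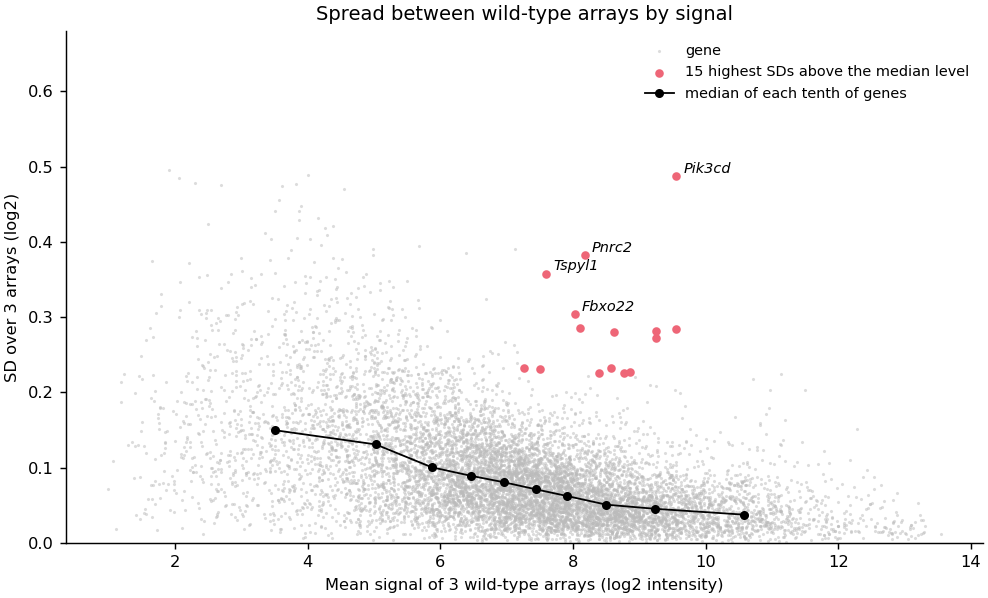
SD over the 3 wild-type arrays against their mean log2 intensity for 9999 genes, in grey, with the medians of 10 equal groups of genes by signal in black and the 15 genes above the median level with the highest SD in red. The median SD falls from 0.15 in the lowest group to 0.037 in the highest.

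Probe sets of the same gene differed more than the arrays did. Of 4479 genes with several probe sets, 3359 had probe sets more than 1 apart and 894 more than 4 apart, with a median spread of 2.04. Lyz1 had probe sets at 13.55, 13.10 and 4.62, Rps20 at 12.88, 12.38 and 2.11, and Csf1r at 12.89, 12.08 and 10.32. Lyz1 and Lyz2 are near-identical copies and may share signal. The share of genes with a single probe set was 30.2% in the highest band, 52.6% in the middle band and 93.8% in the lowest, and a gene with 1 probe set has no other from which a higher value could be taken. Low values of single members of abundant complexes, such as Rpl39 (5.24), Rpl12 (5.50), Cox7c (3.95) and Myl6 (4.64), rest on 1 or 2 probe sets. Those of Il6, Cxcl3, C1qb and Gfi1 rest on 1 probe set each, so a poorly binding probe set cannot be told apart from a low transcript.

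**Figure D5:**
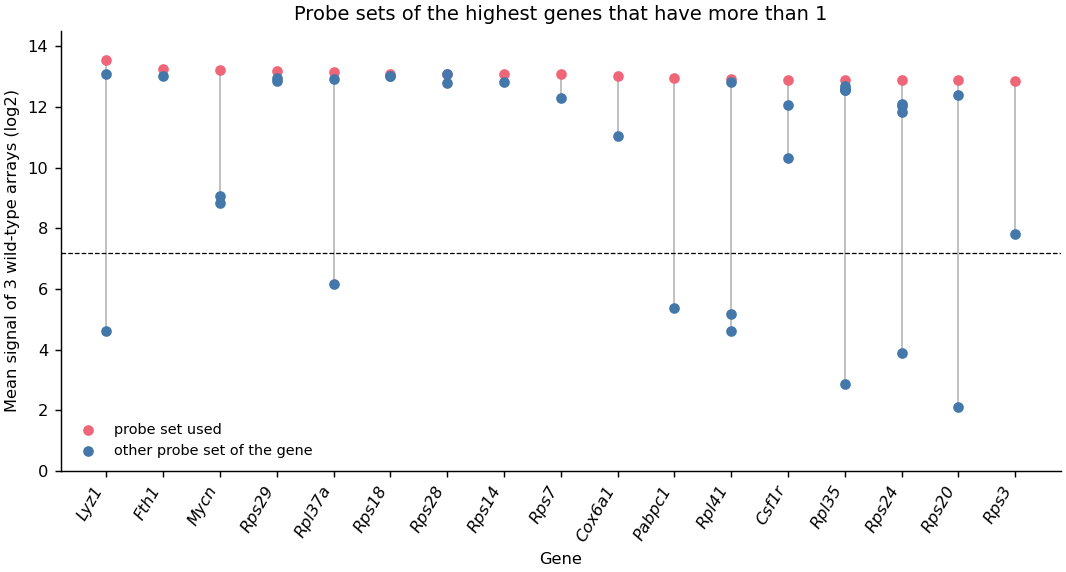
Mean log2 intensity over the 3 wild-type arrays of every probe set of those among the 30 highest genes that have more than 1, with the probe set used in red, the others in blue and the median of all genes dashed. Lyz1, Rpl37a, Pabpc1, Rpl41, Rpl35, Rps24 and Rps20 each have at least 1 probe set below the median of 7.19.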

How the data were processed

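The authors deposited 1 intensity per probe set and array on a linear scale; RMA (background correction, quantile normalization and probe summary) comes from the submitters' processing notes, which give no version. Log2 of these deposited intensities was taken and nothing else was done to them in the values reported. Probe sets were named by a platform annotation: 17335 had 1 symbol and were used, while 532 with several and 1564 unnamed were left out. Of the 9999 genes, 9965 had a RefSeq gene number in the GRCm38.p6 table. Mean, SD and rank were computed with Python 3.11.15, pandas 2.3.3 and NumPy 2.4.6. The code was also run on simulated arrays, made from the measured means plus noise of equal size for every probe set. That run checks the code and not the accuracy of the levels. The number of arrays limits the precision.

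The members and all 46 gene lists were chosen with earlier results of these data known. After values were seen, aliases were removed from the lists, the ribosomal and proteasome name patterns were narrowed to leave out paralogs such as Rps27l, and the promoter description and its 8 printed genes were added. Where RefSeq listed several promoters, as for 1673 genes, the first was used; restricting to genes with 1 covered too few genes. Genes named in the text were drawn, not exhaustively, from a rule that holds the 30 highest genes, 12 list genes nearest the median, the highest and lowest members of each list (up to 4 and 2, or 8 and 4 for receptors, transcription factors and metabolism), list members in the lowest 5%, the 15 most variable genes above the median, and Gfi1, Abl1 and the defining macrophage markers. Alternatives were quantile normalization, median centring, the mean, lowest or wild-type-highest probe set of a gene, a wider lowest band and leaving out each array.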

Additional observations from a re-analysis of the deposited data

How the results depend on the processing

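No paired analysis was possible because no groups were compared. Quantile normalization and centring moved none of 33 list medians beyond their spread, and the largest shift was 0.070 percentile points. Under quantile normalization the limits of the bands were 10.57 and 3.48. With all probe sets of a gene averaged, the band limits were 9.90 and 3.44 and the median level 6.58, and 325 of the 500 highest genes stayed in that band. Of the 377 genes that the naming rule holds, 80 shifted by over 10 percentile points and 22 crossed the median. List medians were then 85.3 (macrophage identity), 24.95 (cytokines), 43.5 (cytokine receptors), 72.1 (glycolysis), 97.5 (respiratory chain) and 99.7 (ribosomal). With the lowest probe set, the limits were 9.71 and 2.64, the median 6.02, and 268 of the highest and 227 of the lowest genes stayed. Of the same 377 genes, 181 shifted by over 10 percentile points and 71 crossed the median. List medians were then 75.3 (macrophage identity), 83.2 (lysosome), 38.1 (cytokines), 44.1 (cytokine receptors), 54.2 (myeloid factors), 71.9 (glycolysis) and 97.2 (respiratory chain). With the probe set highest in wild type, the lysosome median was 94.8 and that of cytokine receptors 36.6. Osteoclast genes went from 70.4 to 44.0 with the mean and 29.6 with the lowest probe set, chemokines went from 30.9 to 53.9 with the lowest, and NF-kappaB, AP-1, IRF and STAT factors from 58.2 to 47.7 with the mean, each crossing the 50th percentile. The lowest 10% of genes held 87 list members, against 37 in the lowest 5%. Leaving out each array in turn gave 10.58 to 10.59 and 3.52 to 3.54 for the band limits, a median SD of 0.036 (without replicate 1) to 0.076, and medians of 94.7 to 94.8 for the lysosome, 36.7 to 37.1 for cytokine receptors and 99.67 to 99.69 for ribosomal proteins. The median SD was called moved when it shifted by over 50% of itself, since it has no spread of its own. Saturation and background of single probes could not be judged from these values.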

Other observations

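Genes on no list were among the highest. S100a4, a calcium-binding protein, read 12.78, 12.75 and 12.76, Lgals1, galectin-1, 12.52, 12.55 and 12.57, and Srgn, the proteoglycan core protein of blood cell granules, 12.07, 12.06 and 12.11. C1qbp, a mitochondrial protein, stood at 12.75, Npm1, a nucleolar protein, at 12.42 and the chaperones Hspa8 and Hspa5 at 12.28 and 12.12. At the other end Cd69, an activation marker of lymphocytes, read 1.63, 1.55 and 1.32. These genes were chosen after their values were seen.

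Interferon-stimulated genes spread over the whole range, with 16 of 32 measured genes above the median and 2 in the highest band, Ifitm3 (12.18) and Ifitm2 (11.24). Oas1a, an antiviral synthetase, stood at 10.01, while Gbp3, a guanylate-binding GTPase, read 3.07, 2.96 and 3.18. Abl1, the cellular relative of the oncogene of Abelson virus, read 6.71, 6.73 and 6.77. Xist, the RNA of the inactive X chromosome, stood at 3.23, and the Y-linked gene Eif2s3y read 7.51, 7.69 and 7.75. Of 7 measured sex-linked genes, 2 lay above the median, Eif2s3x and Eif2s3y, and the Y-linked Kdm5d and Uty lay below it.

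Probe sets annotated to several symbols had a median of 8.34, and 142 of 532 (26.7%) lay above the limit of the highest band, against 6.68 and 4.07% for all probe sets with 1 symbol. Unnamed probe sets had a median of 4.42, and 507 of 1564 lay below the limit of the lowest band.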
